A study of Mus musculus with 5 samples.

Results

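Solute carriers are the membrane proteins that move small molecules without burning ATP themselves: amino acids, sugars, nucleosides, vitamins, metals, ions and the intermediates of mitochondrial metabolism. They were taken from the deposited expression table by name, as every row whose symbol read Slc, a family number, the letter a and a member number. Slc2a1, Slc2a3, Slc16a1, Slc16a3, Slc7a2, Slc40a1 and Slc11a1 were left out by the same rule. Of 345 matching symbols, 7 were those names and 180 stayed under 1 FPKM in all 5 libraries, 104 of them at 0 throughout. The other 158, of 22815 symbols in all, are described here. FPKM is a level scaled to transcript length and library depth. The level floor was the only use of measured values: Slc12a2 (highest value 1.01 FPKM) and Slc22a15 (1.03) came in just above it, and Slc22a23 (0.987) fell just below. Because 1 library sufficed, 14 members were above the floor in the PBS library alone, and such a member had to stand lower elsewhere. Likewise, a member above the floor only in pristane libraries had to stand below those libraries with PBS. Every library was at 1 FPKM or more for 110 members. By symbol, 153 members are carriers. The 5 others only share the name: the scaffold proteins Slc9a3r1 and Slc9a3r2 that tether sodium-proton exchangers, the opposite-strand gene Slc7a6os, the adaptor-named Slc4a1ap and the read-through transcript Slc10a3-ubl4.

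The cells were washed from the peritoneal cavity of mice aged 8 weeks and sequenced by Smart-seq2, a protocol for small amounts of RNA. There were 3 groups: Wildtype C57BL/6 mice given PBS (1 library, abbreviated WT PBS), Wildtype C57BL/6 mice given pristane (2 libraries, WT pristane), and mice of genotype Irf8KO, described as Irf8-deficient, given pristane (2 libraries). Pristane is an oily hydrocarbon that inflames the peritoneum. No Irf8KO library without pristane was analysed here, the sources used here name neither the mutant allele nor the time after pristane, and nothing says whether the libraries of a group came from separate animals, so p-values measure the spread between these libraries only.

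Estimated depth was 2299000 to 5089000 fragments per library, lowest in the PBS library, and 1 fragment on a 1 kb transcript was worth 0.197 to 0.435 FPKM. Irf8 stood at 32.4 FPKM in WT PBS, 63.3 and 48.7 in WT pristane and 121 and 59.4 in the libraries labelled Irf8KO, so the targeted gene's RNA was not reduced in these; the direction of every comparison with them rests on the label. Xist, the transcript of the inactive X chromosome, stood at 43.5 FPKM in WT PBS and 8.81 in WT pristane replicate 2 and at 0.0148 or less in the other 3, where Y-linked Eif2s3y was between 12.9 and 25.6. Eif2s3y was 0 in WT PBS and WT pristane replicate 2. By these genes sex differed within the WT pristane pair. It also differed between WT PBS and both libraries labelled Irf8KO, where it cannot be told apart from treatment and genotype. The part of sex in the carrier results was not tested. The libraries were mixtures of cells, and fewer cells of a type cannot be told apart from less RNA per cell. Summed over marker lists, the 10 mature neutrophil genes reached 172 FPKM in WT PBS, 15714 to 17196 in WT pristane and 25204 to 49042 in the libraries labelled Irf8KO. The 8 inflammatory monocyte genes summed to 813, then 1187 to 6159, then 168 to 332. Single genes dominated these sums: Plac8 held 706 of the 813 in WT PBS, and Chil3 held 4000 of the 6159 in WT pristane replicate 2. The 11 genes of large resident peritoneal macrophages summed to 2605, then 120 to 152, then 1373 to 2174, and the 9 B cell genes to 3311, then 18.7 to 57.0, then 122 to 242. Timd4 ran against the macrophage sum between the pristane groups (0.676 and 0.838 FPKM in WT, 0.0957 and 0.552 in the libraries labelled Irf8KO). The 7 genes of dividing cells summed to 12.5, then 9.79 to 11.6, then 62.7 to 76.2. All members of these 5 lists reached 1 FPKM somewhere. The part of cell composition in the carrier results was not tested.

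As background, carriers work in a few recurring arrangements. Heteromeric amino acid exchangers pair 1 glycosylated heavy chain, Slc3a2 (also known as CD98), with 1 of several Slc7 light chains that decide which amino acid is moved. Zinc enters the cytosol through Slc39 proteins and leaves it through Slc30 proteins. Slc25 proteins shuttle metabolites across the inner mitochondrial membrane, and endolysosomal carriers such as Slc15a3, Slc15a4 and Slc29a3 return the products of digestion to the cytosol, a traffic that is heavy in phagocytes. Several carrier genes are textbook targets of stress factors: the cystine-glutamate exchanger Slc7a11 is induced by Atf4 and by Nrf2.

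Promoter sequence from RefSeq (build GRCm38.p6, 250 bases before to 50 after the start site) was held for 118 of the 158 members, with 163 start sites among them. 4 motifs were searched on both strands: the interferon-stimulated response element (GAAA, any 2 bases, GAAA), the antioxidant response element TGACNNNGC, the amino acid response element TGATGNAA bound by Atf4, and the PU.1 site GAGGAAGT. The antioxidant element was found in 35 of the 163 member promoters (21.5%), against 12.4% of all 32851 promoters in the table. The other 3 were found in 1.84% (interferon), 3.07% (amino acid) and 3.07% (PU.1) of member promoters, against 3.44%, 3.97% and 3.2% of all. Of the 9 members that rose after pristane in WT mice, described below, 7 had a promoter in the table and 3 of these held a match to any of the 4 motifs. Of the 7 that fell, 6 had a promoter and 4 of these held a match, where 34.7% of the members with a promoter and 24.0% of all genes in the table did. The 3 risers are printed with Slc7a11, whose promoter held the amino acid element on each strand. Capitals mark the matches, 5′ to 3′ on the gene's strand: the interferon element in Slc25a22 (1 of its 3 start sites), the PU.1 site in Slc12a4, the antioxidant element read on the opposite strand in Slc39a1 and the amino acid elements in Slc7a11. A match describes the letters only and is not a measured binding site.
Slc25a22 (chr7:141435326-141435625, minus strand): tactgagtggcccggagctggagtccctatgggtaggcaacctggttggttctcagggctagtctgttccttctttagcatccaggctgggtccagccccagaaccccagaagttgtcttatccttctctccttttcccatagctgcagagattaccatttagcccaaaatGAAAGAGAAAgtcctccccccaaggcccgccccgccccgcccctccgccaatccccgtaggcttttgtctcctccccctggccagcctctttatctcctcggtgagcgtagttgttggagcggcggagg
Slc12a4 (chr8:105966066-105966365, minus strand): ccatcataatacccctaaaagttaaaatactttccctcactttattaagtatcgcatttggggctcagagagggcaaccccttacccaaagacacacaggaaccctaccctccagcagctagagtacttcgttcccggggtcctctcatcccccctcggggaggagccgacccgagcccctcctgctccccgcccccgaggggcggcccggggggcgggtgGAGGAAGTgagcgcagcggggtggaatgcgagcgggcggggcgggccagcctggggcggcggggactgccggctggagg
Slc39a1 (chr3:90247942-90248241, plus strand): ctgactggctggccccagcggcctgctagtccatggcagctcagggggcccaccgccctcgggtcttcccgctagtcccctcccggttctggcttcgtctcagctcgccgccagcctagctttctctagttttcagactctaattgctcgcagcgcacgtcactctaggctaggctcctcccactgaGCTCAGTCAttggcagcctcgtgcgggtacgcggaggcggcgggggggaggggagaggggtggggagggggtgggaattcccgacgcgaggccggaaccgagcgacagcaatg
Slc7a11 (chr3:50443564-50443863, minus strand): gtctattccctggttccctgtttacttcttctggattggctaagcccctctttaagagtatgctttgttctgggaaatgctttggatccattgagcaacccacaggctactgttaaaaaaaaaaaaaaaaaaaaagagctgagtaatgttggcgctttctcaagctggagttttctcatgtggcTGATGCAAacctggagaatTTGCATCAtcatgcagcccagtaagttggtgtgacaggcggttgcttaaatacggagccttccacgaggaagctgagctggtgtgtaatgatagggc

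WT pristane against WT PBS shows which carriers differed in the inflamed peritoneum. 9 members rose and 7 fell past the threshold (limma on log2(FPKM + 1), Benjamini-Hochberg adjusted p under 0.05 over 11117 genes). That is 10.1% of the members, beside 10.6% of all genes tested. Of all genes 5.18% were called higher and 5.46% lower, so the share of members called did not stand out. Among the 9 that rose, the scaffold Slc9a3r1 is no carrier. The risers included the light chain Slc7a8 with its heavy chain Slc3a2, the endolysosomal peptide and histidine carrier Slc15a3, the zinc importer Slc39a1, the potassium-chloride cotransporter Slc12a4 and the taurine carrier Slc6a6. Those that fell were low-level genes, at most 5.12 FPKM with PBS. All of them but Slc25a15 reached 1 FPKM in the PBS library alone, so the level floor had fixed the direction of 6 of the 7. The median log2 difference over all members was 0.27, against −0.07 over all genes tested, and 94 of 158 members had a positive difference. The median over members was 0.16 without WT pristane replicate 1, 0.17 without replicate 2 and 0.13 with upper quartile scaling. The PBS library has no replicate, so its spread was taken from the pristane pairs. With any 1 of the 4 pristane libraries removed, 0 genes passed in all, members included, with 32 to 60 members at an unadjusted p under 0.05 (limma), against 53 with all libraries. Those 53, 31 higher and 22 lower, were 33.5% of the members beside 33.8% of all genes (15.9% higher and 17.8% lower). Both WT pristane values lay above the PBS value for 79 members and below it for 54, 50% and 34.2%, where all genes gave 37.3% and 44.5%. Scaling by the upper quartile instead called 9 members higher and 12 lower, and a pseudocount of 0.1 called 9 higher and 3 lower.

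**Figure D1:**
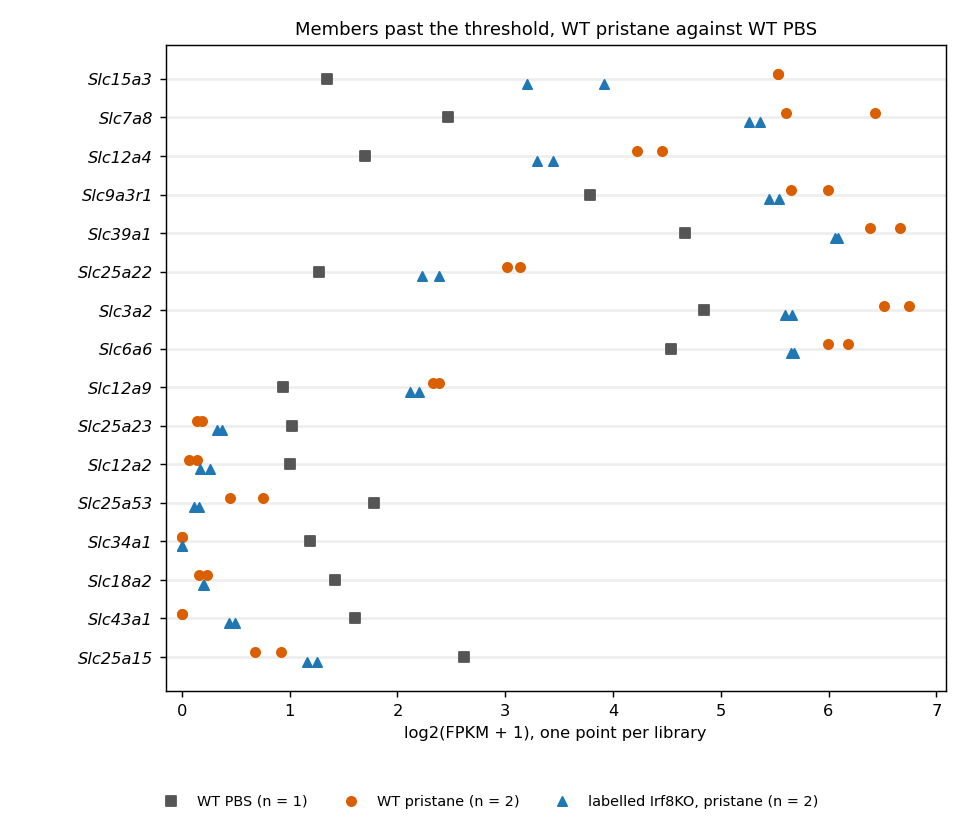
Levels of the 16 members past the threshold in WT pristane against WT PBS, as log2(FPKM + 1) on the x axis, 1 point per library (square WT PBS, circles WT pristane, triangles libraries labelled Irf8KO), ordered by the difference. The 9 that rose have both circles to the right of the square, from Slc15a3 (4.18 on the log2 scale) down to Slc12a9 (1.42); the 7 that fell have every pristane point to the left of the square.

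Among amino acid carriers the heavy chain and 1 of its light chains rose together. Slc3a2 stood at 27.7 FPKM in WT PBS, 90.2 and 107 in WT pristane and 49.6 and 47.3 in the libraries labelled Irf8KO. WT pristane was highest and PBS lowest with no overlap, and the rise in WT was 1.79 ± 0.20 (SE) on the log2 scale (limma adjusted p = 0.0296). Slc7a8, the light chain for exchange of neutral amino acids (LAT2), stood at 4.53 FPKM with PBS, 47.6 and 85.1 in WT pristane and 37.3 and 40.1 in the libraries labelled Irf8KO. All 4 pristane libraries were far above the PBS library; the log2 rise was 3.55 ± 0.40 in WT (adjusted p = 0.0296) and 2.84 ± 0.40 in the libraries labelled Irf8KO (adjusted p = 0.0404). Slc7a11 stood at 0.438 FPKM with PBS, about 6 fragments, at 9.90 and 3.81 in WT pristane and at 4.13 and 2.61 in the libraries labelled Irf8KO; its log2 difference in WT of 2.33 ± 0.60 missed the threshold (adjusted p = 0.0864). Slc7a11 reached 1 FPKM in the pristane libraries alone, so the level floor had fixed its direction. The other light chains were not called. Slc7a7, which exports cationic in exchange for neutral amino acids, stood between 15.1 and 25.6 FPKM over the 5 libraries, its relative Slc7a6 between 2.70 and 5.74, and Slc7a5 (LAT1), the light chain of activated lymphocytes, between 0.166 and 2.33. Slc7a8 was thus the Slc3a2 partner with the highest FPKM in every pristane library, while Slc7a7 held that place with PBS.

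**Figure D2:**
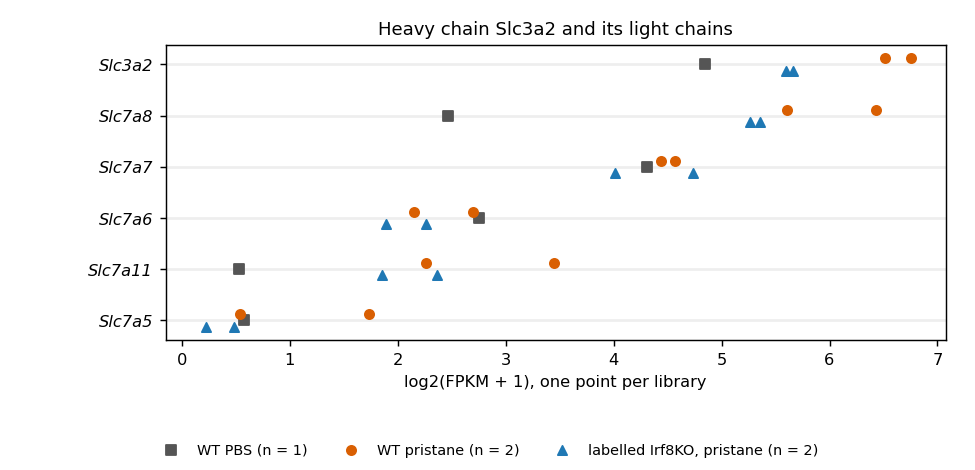
Slc3a2 and 5 light chains that pair with it, as log2(FPKM + 1) per library (square WT PBS, circles WT pristane, triangles libraries labelled Irf8KO), ordered by mean level. Slc7a8 and Slc7a11 have the PBS square to the left of every pristane point, while the square lies among the other points for Slc7a7 and to their right for Slc7a6.

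Among the 21 amino acid carriers in all, 2 rose and 1 fell past the threshold, with a median log2 difference of 0.54. The member that fell was Slc43a1 (LAT3), at 2.04 FPKM with PBS, listed at 0 in both WT pristane libraries and at 0.411 and 0.352 in the libraries labelled Irf8KO; since a 0 in this kind of table can be a failed estimate, no fold is given. Slc16a10, which carries aromatic amino acids, went from 2.91 FPKM with PBS to 25.7 and 8.90 in WT pristane without passing (adjusted p = 0.121). Slc1a5, the neutral amino acid exchanger known for glutamine uptake, stood at 21.2 FPKM with PBS, 16.3 and 13.4 in WT pristane and 10.8 and 11.2 in the libraries labelled Irf8KO, so PBS was highest and the 3 groups did not overlap (adjusted p = 0.217 in WT). Both oligopeptide and histidine carriers sit in endolysosomes. Slc15a3 stood at 1.55 FPKM with PBS and at 45.2 in each of the WT pristane libraries, against 14.1 and 8.21 in the libraries labelled Irf8KO. Its log2 rise in WT, 4.18 ± 0.36 (adjusted p = 0.0257), was the largest of the members. Its relative Slc15a4, an anchor of endosomal Toll-like receptor signalling, stood at 15.4 FPKM with PBS, 28.0 and 18.8 in WT pristane and 19.8 and 20.8 in the libraries labelled Irf8KO, without passing (adjusted p = 0.281).

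Metal carriers were the second-largest class with 23 members, of which 1 rose and 0 fell past the threshold. At an unadjusted p under 0.05 (limma) 6 were higher and 1 lower, where all genes gave 15.9% and 17.8%, and the class median was 0.56. Slc39a1 (ZIP1), a zinc importer of the plasma membrane, stood at 24.4 FPKM with PBS, 100.4 and 82.5 in WT pristane and 65.6 and 67.1 in the libraries labelled Irf8KO, with a log2 rise of 1.86 ± 0.21 in WT (adjusted p = 0.0296). All pristane libraries were above PBS and the 2 WT ones were highest. Slc39a14 (ZIP14), which takes up zinc, iron and manganese, was at 0.170 FPKM with PBS, 2.35 and 6.98 in WT pristane and 1.96 and 1.33 in the libraries labelled Irf8KO (adjusted p = 0.0988 in WT). The copper importer Slc31a1 stood at 6.40 FPKM with PBS and 13.6 and 22.2 in WT pristane (adjusted p = 0.0904), and Slc30a6, a Golgi zinc carrier, at 3.21 and then 6.83 and 8.80 (adjusted p = 0.0862). Of these, Slc39a14 reached 1 FPKM in the pristane libraries alone, so the level floor had fixed its direction against PBS. Slc48a1, which returns heme from the phagolysosome to the cytosol, stood between 28.3 and 35.0 FPKM in all 5 libraries. Slc39a7, the zinc release channel of the endoplasmic reticulum, ran from 31.7 FPKM with PBS to 52.8 in WT pristane replicate 2 (adjusted p = 0.306).

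Ion and pH carriers held 2 of the 9 risers. Slc12a4 (KCC1), which lets potassium and chloride out together and shrinks cells, stood at 2.24 FPKM with PBS, 20.9 and 17.6 in WT pristane and 9.85 and 8.81 in the libraries labelled Irf8KO; its log2 rise was 2.64 ± 0.24 in WT (adjusted p = 0.0263) and 1.67 ± 0.24 in the libraries labelled Irf8KO (adjusted p = 0.0408). The related Slc12a9 rose from 0.915 FPKM to 4.24 and 4.03 in WT pristane (log2 change 1.42 ± 0.24, limma adjusted p = 0.0446). It reached 1 FPKM in the pristane libraries alone, so the level floor had fixed this direction. The sodium-potassium-chloride importer Slc12a2 fell from 1.01 FPKM to 0.1 and 0.0498 (adjusted p = 0.0459), about 15 fragments with PBS. Slc9a8, a sodium-proton exchanger of the Golgi, stood at 5.42 FPKM with PBS, 3.52 and 4.87 in WT pristane and 2.10 and 2.81 in the libraries labelled Irf8KO. Slc9a7, a sodium-proton exchanger of the trans-Golgi network, had the largest negative difference of the members, from 17.9 FPKM with PBS to 5.25 and 0.433 in WT pristane and 1.57 and 0.357 in the libraries labelled Irf8KO. Its WT pristane libraries lay far apart, and the log2 difference of −2.66 ± 1.03 did not pass (adjusted p = 0.167).

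Mitochondrial carriers were the largest class, 36 members with a median of 0.08, of which 1 rose and 3 fell. They also held the 2 members with the highest mean FPKM. Slc25a5, the main ADP-ATP exchanger of dividing and haematopoietic cells, stood at 313 FPKM with PBS, 400 and 558 in WT pristane and 419 and 450 in the libraries labelled Irf8KO, and Slc25a3, which brings phosphate and copper into the matrix, between 222 and 300 in all 5. Neither was called. Slc25a4, the ADP-ATP exchanger of muscle, is close in sequence to Slc25a5, and the 2 may share fragments. The riser was Slc25a22, a glutamate carrier, from 1.41 FPKM to 7.78 and 7.11 (log2 change 1.81 ± 0.25, adjusted p = 0.0348). The ornithine carrier Slc25a15 fell from 5.12 FPKM to 0.598 and 0.889 (−1.82 ± 0.24, adjusted p = 0.0334), and stood at 1.24 and 1.39 in the libraries labelled Irf8KO. Slc25a23, a calcium-regulated ATP-magnesium carrier, and Slc25a53, whose substrate is not established, fell from 1.03 and 2.44 FPKM with PBS (adjusted p = 0.0483 and 0.0499). Citrate carrier Slc25a1 (15.1 FPKM with PBS, 36.3 and 30.8 in WT pristane), ATP-magnesium carrier Slc25a24 (6.01, then 13 and 19.9) and aspartate-glutamate exchanger Slc25a13 (2.52, then 6.33 and 5.53) had positive differences with adjusted p from 0.0759 to 0.0859.

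Carriers of neurotransmitters and osmolytes went both ways. Slc6a6, which concentrates taurine, an osmolyte abundant in leukocytes, stood at 22.2 FPKM with PBS, 62.8 and 71.4 in WT pristane and 49.1 and 50.4 in the libraries labelled Irf8KO; the rise was 1.55 ± 0.19 in WT (adjusted p = 0.0313) and 1.13 ± 0.19 in the libraries labelled Irf8KO (adjusted p = 0.0484). Slc18a2 (VMAT2), which loads amines into secretory granules, fell from 1.68 FPKM to 0.119 and 0.178 (adjusted p = 0.0326), and stood at 0.152 and 0.147 in the libraries labelled Irf8KO. Slc18a2 is expressed in mast cells, and the mast cell protease Cpa3 stood at 58.5 FPKM with PBS and at most 0.276 with pristane. Cma1 stood at 134 and at most 3.40, and Mcpt4 at 70.2 and at 0 in all 4 pristane libraries. The 7 mast cell markers, all of which reached 1 FPKM, summed to 328 FPKM with PBS, 52.4 to 190 in WT pristane and 112 to 114 in the libraries labelled Irf8KO; Hdc was the 1 marker with the opposite order. The part of mast cells in the Slc18a2 result was not tested. The vesicular nucleotide carrier Slc17a9 stood at 3.14 FPKM with PBS, 0.445 and 0.828 in WT pristane and 2.55 and 1.91 in the libraries labelled Irf8KO (adjusted p = 0.0626 in WT). Sialic acid exporter Slc17a5 of the lysosome stood at 3.62 FPKM with PBS and between 5.39 and 9.13 with pristane (adjusted p = 0.274 in WT). The remaining fall was that of Slc34a1, the sodium-phosphate carrier of the kidney tubule, at 1.28 FPKM with PBS, about 7 fragments, and listed at 0 in all 4 pristane libraries. The 7 members that fell rested on an estimated 2 to 40 fragments in the PBS library, and the 9 that rose on 2 to 133, with Slc25a22 at 2, Slc12a9 at 4 and Slc15a3 at 8.

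No member of the sugar, nucleoside, fatty acid, monocarboxylate, nucleotide sugar, vitamin or organic ion classes passed in WT pristane against WT PBS. Slc2a6 (GLUT6), a lysosomal hexose carrier of phagocytes, had the third-highest mean FPKM of the members and wide replicates: 19.9 FPKM with PBS, 179 and 50.6 in WT pristane and 149 and 92.8 in the libraries labelled Irf8KO. All 4 pristane libraries were above PBS, the log2 difference in WT was 2.21 ± 0.85 and the adjusted p 0.166. Slc50a1 (SWEET1), a sugar carrier of the Golgi, stood at 43.7 FPKM with PBS against 23.6 and 11.7 in WT pristane (adjusted p = 0.134). Slc45a3, a sugar carrier, stood at 1.59 FPKM with PBS and at most 0.495 with pristane (adjusted p = 0.0959 in WT). Choline carrier Slc44a1 stood at 0.486 FPKM with PBS and 6.08 and 3.26 in WT pristane (adjusted p = 0.0640), whereas its relative Slc44a2 stood between 26.2 and 41.9 in every library. Slc27a3 of the fatty acid family stood at 3.23 FPKM with PBS, 0.859 and 0.319 in WT pristane, and was listed at 0 in both libraries labelled Irf8KO. Phosphate importer Slc20a2 (5.74 FPKM with PBS, 1.43 and 1.30 in WT pristane, adjusted p = 0.0641) and Slc46a3, a lysosomal member of the folate carrier family (7.47, then 2.39 and 1.63, adjusted p = 0.0504), had negative differences. Slc20a1, the other phosphate importer of that family, ran from 3.69 to 8.00 FPKM, and the anion exchanger Slc26a6 from 1.14 to 3.61. Urea channel Slc14a1 (2.50, then 0.760 and 0.471, adjusted p = 0.0518) did as well, and so did Slc10a6, a carrier of steroid sulfates at 2.18 FPKM with PBS and listed at 0 in both WT pristane libraries. Slc44a1 reached 1 FPKM in the pristane libraries alone, and Slc14a1, Slc27a3 and Slc45a3 in the PBS library alone. The level floor had thus fixed the direction of each of these against PBS. Slc10a7 stood between 4.77 and 6.80 in all libraries, and of the Golgi and endoplasmic reticulum carriers Slc35a4 ran from 25.1 with PBS to 33.2, and the acetyl-CoA carrier Slc33a1 from 2.81 with PBS to 7.86. Riboflavin carriers Slc52a2 and Slc52a3 stood at 6.26 and 1.49 FPKM with PBS, and Slc52a3 at 3.94 and 5.16 in WT pristane (adjusted p = 0.0747). Monocarboxylate carriers Slc16a6, Slc16a7 and Slc16a13 had adjusted p from 0.525 to 0.698, and without WT pristane replicate 2 the sign of Slc16a6 turned, as did that of Slc16a7 without replicate 1. Of the non-carriers, the scaffold Slc9a3r1 rose from 12.8 FPKM to 49.4 and 62.8 (2.04 ± 0.23, adjusted p = 0.0296).

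**Figure D3:**
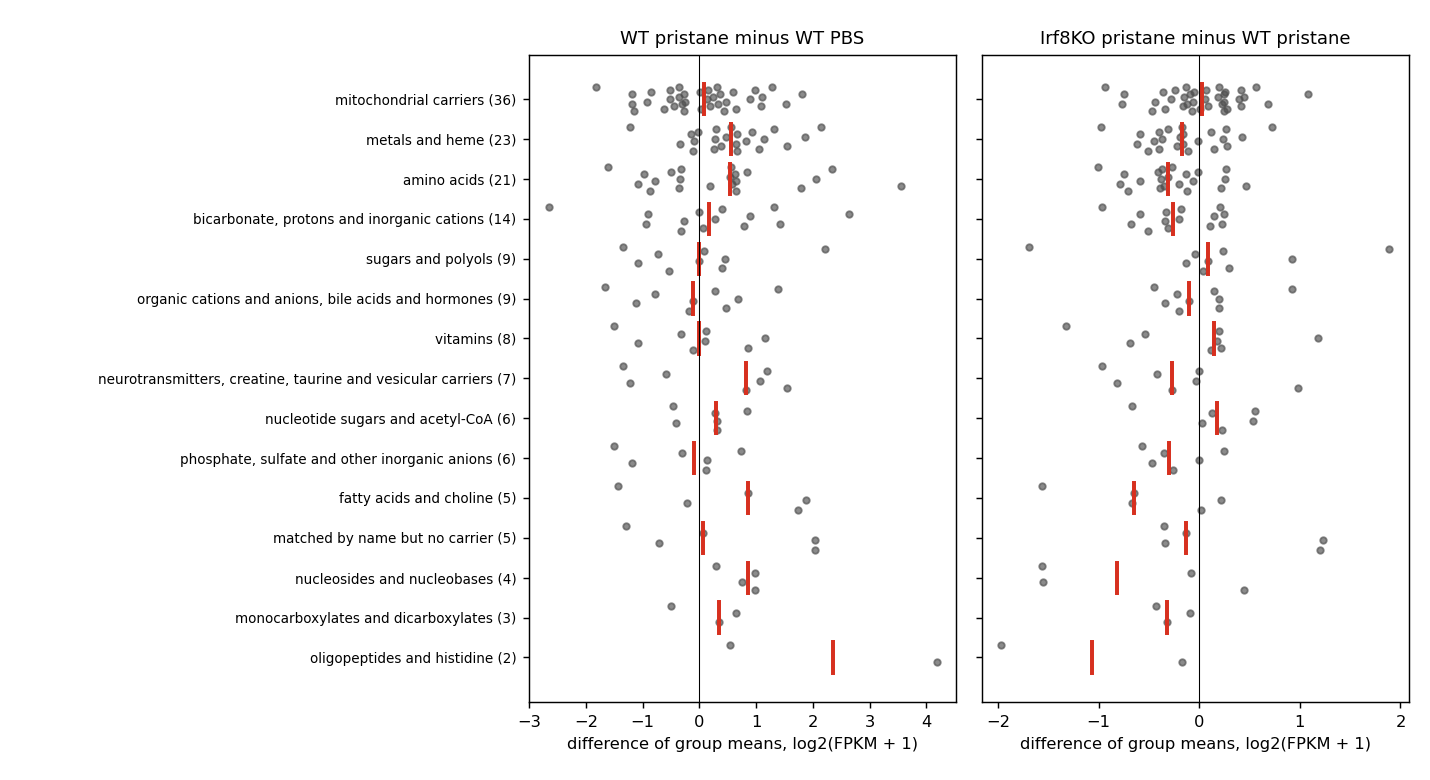
Differences of group means in log2(FPKM + 1), WT pristane minus WT PBS on the left and Irf8KO pristane minus WT pristane on the right, for the 158 members by substrate class (number of members in parentheses); each point is a member and each red bar the class median. On the left the medians of the amino acid and metal classes lie at 0.54 and 0.56 and that of the mitochondrial class at 0.08; on the right the medians lie between −1.07 and 0.17.

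Irf8KO pristane against WT pristane sets the pristane libraries labelled Irf8KO, in which Irf8 RNA was not reduced, against those of WT mice. The 5 largest log2 differences were those of Slc15a3 (−1.97), Slc2a8 (1.89), Slc37a2 (−1.70), Slc29a3 (−1.56) and Slc27a1 (−1.56), of which Slc2a8 alone stood higher in the libraries labelled Irf8KO. By limma 0 of 158 members passed the adjusted threshold, beside 3 of all genes (0.027%, all lower); at an unadjusted p under 0.05, 8 members were higher and 13 lower (limma), 13.3% of the members beside 20.6% of all genes (10.5% higher, 10.1% lower). The groups did not overlap for 48 members with Irf8KO lower and 23 with Irf8KO higher, or 30.4% and 14.6%, where all genes gave 27.1% and 26.1%. The median over the members was −0.13 on the log2 scale, against −0.00 over all genes tested. Calls depended on the filter and on the libraries fitted: with a mean of at least 5 FPKM, Slc15a3 and Slc29a3 passed (adjusted p = 0.0367 and 0.0424), and in a fit of the 4 pristane libraries alone Slc15a3, Slc29a3 and Slc2a8 did (0.0328, 0.0430 and 0.0479). Calls rose for all genes there, to 242 under that filter and 321 in that fit, against 2 of 83 and 3 of 157 members. Without any 1 of these libraries 0 genes passed in all, with 8 to 30 members at an unadjusted p under 0.05.

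**Figure D4:**
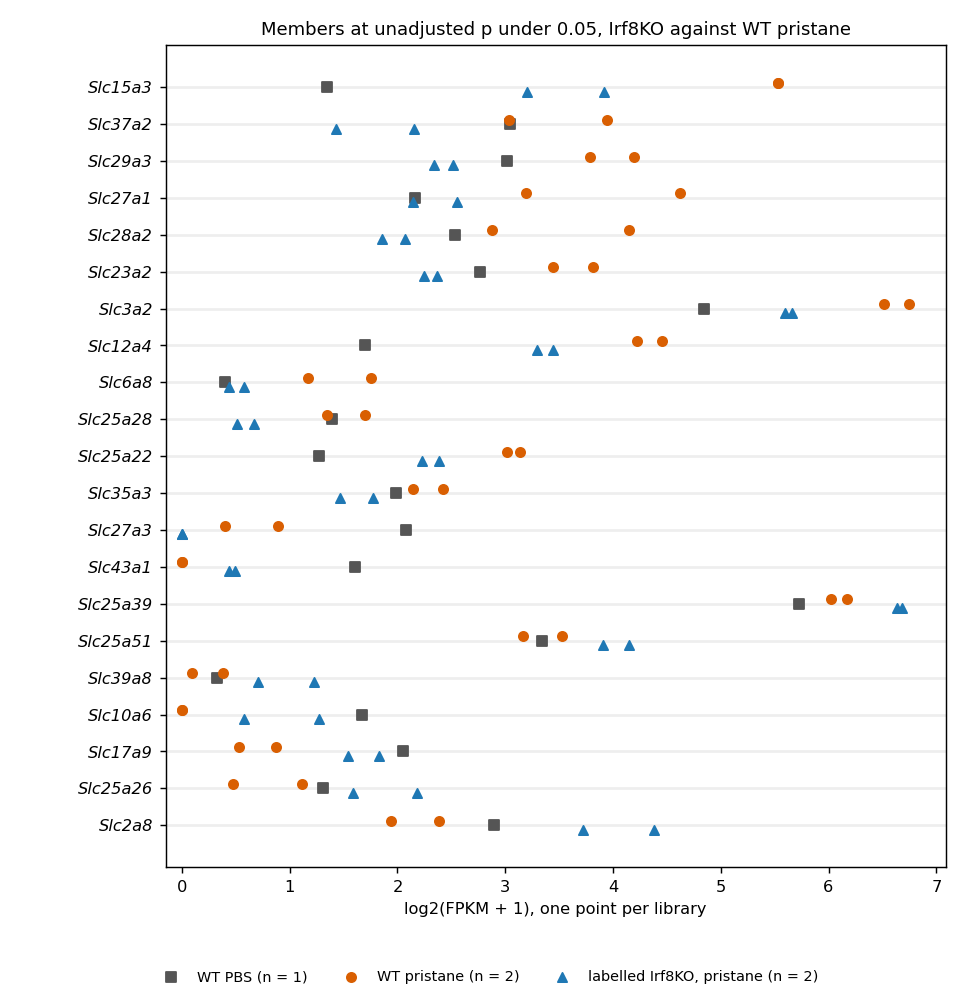
The 21 members at an unadjusted p under 0.05 in Irf8KO against WT pristane, as log2(FPKM + 1) per library (square WT PBS, circles WT pristane, triangles libraries labelled Irf8KO), ordered by the difference. From Slc15a3 (−1.97) to Slc27a3 (−0.65) the triangles lie left of the circles, and from Slc43a1 (0.47) to Slc2a8 (1.89) they lie right of them.

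For Slc15a3, at 45.2 FPKM in each WT pristane library and 14.1 and 8.21 in those labelled Irf8KO, the log2 difference was −1.97 ± 0.30 with a 95% interval from −2.80 to −1.14 (adjusted p = 0.101); both lay above the PBS value of 1.55. Slc29a3 (ENT3), which lets nucleosides out of lysosomes, stood at 12.8 and 17.3 FPKM in WT pristane against 4.05 and 4.73, below the PBS value of 7.07; the difference was −1.56 ± 0.24 (adjusted p = 0.101). Slc28a2 (CNT2), which takes up purine nucleosides with sodium, stood at 6.33 and 16.7 against 2.61 and 3.21 (−1.55 ± 0.49, adjusted p = 0.209), again with PBS (4.80) between the groups. Slc29a1 (ENT1), the general nucleoside carrier of the plasma membrane, overlapped, at 30.7 and 12.5 against 21.8 and 15.7. The nucleobase carrier Slc43a3 overlapped too. Pnp, the enzyme that splits purine nucleosides, had a log2 difference of −1.26 (adjusted p = 0.212).

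Slc3a2 stood lower by 1.00 ± 0.16 on the log2 scale in the libraries labelled Irf8KO (adjusted p = 0.108), and its partner Slc7a8 had a difference of −0.71 ± 0.33 with an interval from −1.62 to 0.21 (adjusted p = 0.326). Of the 21 amino acid carriers, 8 had both Irf8KO values below both WT pristane values and 2 had both above, where all genes gave 27.1% and 26.1%. Slc12a4 had a difference of −0.97 ± 0.19 (adjusted p = 0.133) and the glutamate carrier Slc25a22 one of −0.77 ± 0.20, from 7.78 and 7.11 to 4.22 and 3.68 FPKM (adjusted p = 0.172). The vitamin C carrier Slc23a2 stood at 9.86 and 13 FPKM in WT pristane and 3.74 and 4.14 in the libraries labelled Irf8KO (−1.32 ± 0.23, adjusted p = 0.112), with PBS at 5.81. The creatine carrier Slc6a8 stood at 1.26 and 2.38 against 0.486 and 0.351. It reached 1 FPKM in the WT pristane libraries alone, so the level floor had fixed this direction. Mitochondrial iron importer Slc25a28 stood at 2.25 and 1.54 against 0.587 and 0.422 (−0.94 ± 0.21, adjusted p = 0.147). Fatty acid carrier Slc27a1 stood at 8.17 and 23.6 FPKM in WT pristane and 4.87 and 3.41 (adjusted p = 0.239). Slc37a2, a sugar phosphate exchanger of the endoplasmic reticulum that is abundant in macrophages, stood at 7.17 and 14.4 against 3.44 and 1.70 (−1.70 ± 0.45, adjusted p = 0.174). For Slc37a2, Slc27a1 and Slc28a2 WT pristane replicate 2 was clearly the higher of the pair. The inflammatory monocyte markers summed to 6159 FPKM in that replicate and 1187 in the other, of which Chil3 alone held 4000 and 88.9. By Xist and Eif2s3y this pair also differed in sex. Other members, such as Slc2a6 and Slc16a10, were higher in WT pristane replicate 1. The part of monocytes and of sex in these differences was not tested.

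On the higher side, Slc2a8 (GLUT8), an intracellular hexose and disaccharide carrier, stood at 12.2 and 19.9 FPKM in both libraries labelled Irf8KO, against 2.85 and 4.23 in WT pristane and 6.46 in WT PBS (1.89 ± 0.33, interval 0.96 to 2.81, adjusted p = 0.117). Over all genes, 26.1% had both Irf8KO values above both WT pristane values and 27.1% had both below. Of the 36 mitochondrial carriers, 8 had both above and 6 both below, with a class median of 0.03. They included Slc25a39, the glutathione importer, at 102 and 98.5 against 70.9 and 64.2 FPKM (adjusted p = 0.172), Slc25a51, the NAD importer, at 16.7 and 14.0 against 10.5 and 7.96 (adjusted p = 0.217), and Slc25a26, which imports the methyl donor S-adenosylmethionine, at 2.00 and 3.52 against 0.393 and 1.17 (adjusted p = 0.213). Slc17a9 stood at 2.55 and 1.91 against 0.445 and 0.828 (adjusted p = 0.155). Slc39a8 (ZIP8), a zinc and manganese importer, was near the floor of the table, at 0.635 and 1.34 against 0.0680 and 0.303. It reached 1 FPKM in Irf8KO replicate 2 alone, so the level floor favoured this direction. The folate and heme carrier Slc46a1 stood at 2.58 and 5.26 against 1.77 and 0.564 (adjusted p = 0.254), and CMP-sialic acid carrier Slc35a1 of the Golgi at 10.2 and 8.19 against 6.94 and 5.07 (adjusted p = 0.312). The UDP-N-acetylglucosamine carrier Slc35a3 had the opposite sign, 1.76 and 2.41 against 4.38 and 3.42. Sulfate carrier Slc26a2 (5.44 and 7.36 against 10.2 and 9.52) and zinc exporter Slc30a1 (0.324 and 0.156 against 0.592 and 1.26) stood lower without passing. Slc30a1 reached 1 FPKM in WT pristane replicate 2 alone, so the level floor favoured its direction.

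Irf8KO pristane against WT PBS shares its PBS library with the WT comparison, so the values are given side by side and not compared. Here 7 members rose and 8 fell, 9.49% of the members beside 8.54% of all genes tested, and 6 of the 8 that fell had reached 1 FPKM in the PBS library alone, so the floor had fixed their direction; 3.81% of all genes were called higher and 4.72% lower. At an unadjusted p under 0.05 (limma) 24 were higher and 25 lower, 31.0% of the members beside 33.7% of all genes (15.6% and 18.1%). Both values lay above the PBS value for 71 members and below it for 60, or 44.9% and 38%, where all genes gave 40.7% and 46.0%. Removing any 1 pristane library left 0 of all genes past the threshold, with 24 to 57 members at an unadjusted p under 0.05. The 7 that rose were Slc15a3 (log2 change 2.21 ± 0.36), Slc7a8, Slc12a4, Slc39a1 (1.41 ± 0.21), Slc6a6, the scaffold Slc9a3r1 (1.71 ± 0.23) and Slc25a10, the mitochondrial dicarboxylate carrier, which went from 1.06 FPKM with PBS to 4.71 and 5.28 (1.54 ± 0.25, adjusted p = 0.0465) and stood at 3.17 and 3.61 in WT pristane. Slc3a2 did not pass here (0.78 ± 0.20, adjusted p = 0.0873). Those that fell were Slc46a3 (7.47 FPKM with PBS, 1.01 and 1.10 in the libraries labelled Irf8KO, adjusted p = 0.0386), Slc14a1, Slc18a2, Slc25a15, Slc25a53, Slc43a1, and, listed at 0 in both libraries labelled Irf8KO, Slc27a3 and Slc34a1. The median over the members was 0.10, against −0.05 over all genes. It changed sign, to −0.03, when libraries were scaled by their upper quartile, where the median over all genes was −0.17.

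Genes that work with the carriers were read beside them. In WT pristane against WT PBS, 5.18% of all genes tested rose and 5.46% fell past the threshold. At an unadjusted p under 0.05 (limma) these shares were 15.9% and 17.8%. Of 6 partners and ion pumps, 1 rose in WT pristane: Atp1b3, a subunit of the sodium-potassium pump that powers sodium-coupled carriers, by 1.26 on the log2 scale (adjusted p = 0.0453). Of 20 tested carriers named outside the numbering rule, 4 rose and 0 fell. Among them Mfsd12, a lysosomal cysteine importer, went from 3.99 FPKM to 43.2 and 26.4 (2.80 ± 0.37, adjusted p = 0.0338) and stood at 13 and 10.9 in the libraries labelled Irf8KO, and Slc35f5 went from 1.55 FPKM to 17.1 and 18.3 (adjusted p = 0.0257). Slc35e4 rose by 1.72 (adjusted p = 0.0475) and Slc35f6 by 2.03 (adjusted p = 0.0492). Of 16 tested enzymes and binding proteins that use the substrates, 0 passed (limma), with 6 higher and 2 lower at an unadjusted p under 0.05. Glutamine synthetase Glul stood at 126 FPKM with PBS, 35.0 and 40.8 in WT pristane and 104 and 176 in the libraries labelled Irf8KO, so WT pristane was lowest (adjusted p = 0.0658 against PBS). Thymidine kinase Tk1, an enzyme of dividing cells, stood at 2.81 and 2.46 FPKM in WT pristane and 12.4 and 13.9 in the libraries labelled Irf8KO (adjusted p = 0.0586). Of 11 regulators 1 rose, the hypoxia factor Hif1a (1.70 ± 0.29, adjusted p = 0.0462). Myc, which drives carrier genes in growing cells, stood at 50.4 FPKM with PBS and 5.23 and 12.6 in WT pristane (adjusted p = 0.0623). Nfe2l2, which encodes Nrf2, stood at 15.7 FPKM with PBS and 114 and 52.1 in WT pristane (adjusted p = 0.0732), and Atf4 at 71.5 FPKM with PBS, 50.4 and 86.9 in WT pristane and 35.5 and 34.2 in the libraries labelled Irf8KO (adjusted p = 0.227 between the pristane groups). In Irf8KO against WT pristane 0 genes of these 4 lists passed by limma. At an unadjusted p under 0.05 (limma) 6 were higher and 9 lower of the 53 tested, beside 10.5% and 10.1% of all genes.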

How the data were processed

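Values were deposited by the authors as FPKM in 1 table of the whole series, although the table is titled a count table: the values were not whole numbers. BWA, TopHat2 2.0.10, Cufflinks 2.2.1 and Cuffnorm are named in the submitters' processing notes without roles. Genome build, annotation and scaling between libraries: not given in the sources used here. Depth was estimated from genes with 1 transcript of at least 1000 bp (GENCODE M21) and values under 0.3 FPKM, whose product with length gathers at 1 and 2 fragments (63.0% to 81.0% of these products lay within 0.15 of the whole number). Fragments behind a member's value used the median coding transcript length, which partial transcripts shorten, and are approximate.

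Genes with at least 1 FPKM in 1 library (11117) entered a limma-trend fit of log2(FPKM + 1) (limma 3.58.1, R 4.3.3), with all 5 libraries and 3 group means in 1 fit, 2 residual and 1.99 prior degrees of freedom, 2-sided p adjusted by Benjamini-Hochberg over all genes. All genes' p-values, not the members' alone, set the adjustment. Log2 changes are on the log2(FPKM + 1) scale, which understates changes of low genes. Simulated data held 11117 genes, 100 of them shifted by 2 and 100 by 4 on the log2 scale. Of those shifted by 2, the fit recovered 63 for WT pristane against PBS, 89 for Irf8KO against WT pristane and 75 for Irf8KO pristane against PBS. Of those shifted by 4 it recovered 97, 100 and 99, and false calls in these runs were 7, 12 and 15. The simulated noise used the variances of the fit itself. Recovery of such shifts under the measured noise was not tested. In Irf8KO against WT pristane as measured, 3 of 11117 genes passed. Slc15a3, with a log2 difference of −1.97, did not pass there (limma adjusted p = 0.101).

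The members and lists were chosen with earlier results of these data known. Substrate classes followed family names; Slc4a1ap and Slc10a3-ubl4 were moved to the non-carriers after the table was opened. Named members were those past the threshold, and per class the 3 and 2 with the smallest p in the first and second comparison and the 2 with the highest level; of related genes, up to 3 per list with the smallest p. Slc7a5, Slc7a6, Slc7a7, Slc7a11, Slc16a10, Slc1a5, Slc39a14, Slc48a1, Slc9a7, Slc25a1, Slc25a4, Slc25a13, Slc25a24, Slc25a26, Slc25a39, Slc25a51, Slc35f6, Pnp, Nfe2l2 and Atf4 were named after their values were seen. Alternatives were other pseudocounts, filters, scalings, no trend, fits of 2 groups, a replicate block and leaving out each replicate. Single values of a few genes are not reported here.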

Additional observations from a re-analysis of the deposited data

How the results depend on the processing

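Of 1120 single-gene log2 differences recomputed under the alternatives, 1115 kept their sign. The 5 that turned were Slc16a6 without WT pristane replicate 2 (WT pristane against PBS −0.057, range with 1 replicate left out −0.057 to 1.34; Irf8KO against WT pristane 0.38, range −1.02 to 0.38), Slc16a7 without WT pristane replicate 1 (−0.18, range −0.18 to 0.87, and 0.098, range −0.95 to 0.098) and Slc15a4 without it (0.10, range −0.44 to 0.10, in Irf8KO against WT pristane); the cause was not tested. For WT pristane against PBS, the 16 calls became 12 with a pseudocount of 0.1 (9 higher, 3 lower; Slc12a2, Slc25a15, Slc25a23 and Slc25a53 lost), 7 with a mean of at least 5 FPKM (7 higher, 0 lower, 83 members tested), 0 with only the 2 groups compared and 0 to 0 with 1 replicate left out, both of which leave fewer residual degrees of freedom; 14 remained without the members listed at 0 throughout 1 group, chosen after seeing the data. The median over members, 0.27, was 0.29 and 0.28 with pseudocounts of 0.1 and 0.5, 0.40 with the mean filter, 0.13 and 0.24 with upper quartile and median ratio scaling, and 0.16 to 0.27 with 1 replicate left out. Upper quartile scaling moved the median of all genes from −0.07 to −0.20, and the mean filter moved it to 0.14. In Irf8KO pristane against PBS the median of all genes was −0.05. With the mean filter it was 0.18, beside 0.20 over the members. For Irf8KO against WT pristane, the 0 calls became 2 with the mean filter and 3 in the fit of 2 groups, and 0 to 0 with 1 replicate left out; the median of −0.13 was −0.15 with pseudocount 0.1 and −0.15 to −0.083 with 1 replicate left out. For Irf8KO pristane against PBS, the 15 calls became 9 with pseudocount 0.1, 8 with the mean filter, 7 without the trend, 0 in the fit of 2 groups and 0 to 0 with 1 replicate left out; the median of 0.10 was 0.20 with the mean filter, −0.027 with upper quartile scaling and 0.053 to 0.10 with 1 replicate left out.

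Replicate numbers are shared between the pristane groups, but nothing in the labels says that they pair the libraries, and the deviations of same-numbered libraries correlated at 0.045 over 11117 genes. With the replicate number as a block, 1 residual degree of freedom was left: 0 genes passed in each comparison, members included, 45, 18 and 42 members had an unadjusted p under 0.05 (limma), and the medians were 0.21, −0.13 and 0.060. Depth limits the low members most, since 1 fragment on a 1 kb transcript was worth 0.435 FPKM in the PBS library.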

Other observations

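Summed over the 153 carriers, RNA stood at 1740 FPKM in WT PBS, 2430 and 2503 in WT pristane and 2203 and 2190 in the libraries labelled Irf8KO, and in each library the mitochondrial carriers made up the largest class sum, from 936 to 1234 FPKM. All symbols together summed to 469594 FPKM in WT PBS, 484438 and 451694 in WT pristane and 582696 and 518276 in the libraries labelled Irf8KO. The sums given here are therefore not shares of a library. The sugar and polyol class ran from 94.1 in WT pristane replicate 2 to 231 in WT pristane replicate 1, where Slc2a6 alone held 179. The metal class summed to 195 FPKM with PBS and 276 to 341 with pristane. The phosphate and sulfate class summed to 26.9 FPKM with PBS, 20.6 and 23.7 in WT pristane and 16.0 and 16.2 in the libraries labelled Irf8KO.

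Slc9a3r2, a scaffold that shares only the name, stood at 17.7 FPKM in WT PBS, 18 and 2.08 in WT pristane and 15.5 and 18.4 in the libraries labelled Irf8KO, so WT pristane replicate 2 lay apart from the other 4 libraries. The read-through symbol Slc10a3-ubl4 was at 0 to within rounding in WT PBS and between 1.51 and 10.6 FPKM in the pristane libraries. It reached 1 FPKM in the pristane libraries alone, so the level floor had fixed this direction. It overlaps Slc10a3, which stood between 15 and 24.6, so fragments may have been split between the 2 symbols.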
